A study of Rattus norvegicus with 18 samples.

Results

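The genes described here are those of antigen presentation on major histocompatibility complex (MHC) class II in the rat hippocampus. They were found in the table by symbol, from a list that was drawn up with earlier results of these data known: Cd74, RT1-Da, RT1-Db1, RT1-Ba, RT1-Bb, RT1-DMa, RT1-DMb and Ciita, with B2m added as a chain of class I (CD74, RT1-DA, RT1-DB1, RT1-BA, RT1-BB, RT1-DMA, RT1-DMB, CIITA and B2M in the table's spelling). All 9 listed symbols were measured, among 20909 genes in the deposited table. Their levels came from stranded polyA RNA libraries of whole hippocampus, 1 library for each of 18 adult male rats. The bred High Responder line (bHR) and its counterpart, the bred Low Responder line (bLR), gave 6 rats each from generation 37 of selection for high or low locomotion in a new environment. Bred Intermediate Responder rats (bIR), also 6 and labelled generation 37, were the offspring of crosses between bHR and bLR rats. Locomotor scores were 2079 to 2501 in bHR, 323 to 886 in bIR and 20 to 44 in bLR rats. They came from a test run in every line at a younger age than that at which hippocampi were taken. Hippocampi of bHR and bLR rats were taken between postnatal days P160 and P167 and those of bIR rats between P126 and P134, so line and age cannot be told apart wherever bIR rats are compared. The labels name no transgene, treatment, litter or sequencing lane for a rat. Rats of a line may therefore share litters, and litter and lane could not be examined.

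In class II presentation, an alpha and a beta chain pair in the endoplasmic reticulum and are held there by the invariant chain, which blocks the peptide groove and steers the pair to endosomes. Proteases then cut the invariant chain down to a short peptide, and the DM heterodimer swaps this peptide for one from an ingested protein, which is shown at the cell surface to CD4+ T cells. In brain the pathway is known from macrophages at the borders of the tissue, dendritic cells of the meninges and choroid plexus, and activated microglia. In the rat, RT1-D and RT1-B are the class II molecules that correspond to human HLA-DR and HLA-DQ.

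Class II promoters are known for an X box and a Y box, bound by the RFX and NF-Y complexes, on which the coactivator CIITA assembles. Promoter windows from 250 bases before to 50 bases after the transcription start were found for 7 of the 9 genes in RefSeq's GRCr8 annotation, and Ciita and RT1-DMb had no entry. This build is not the one the reads were counted on, Rnor_6.0. The stretches below are shown because 5 genes that the pathway uses together have a Y box there, and 4 of these an X-box-like sequence before it. Each is written 5′ to 3′ on the gene's own strand, with the X-box-like match (G-N-N-A-C-N-G-A-T-G, with N for any base) and the Y box TGATTGG in capitals.

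RT1-Da, alpha chain of RT1-D, chr20:4515313-4515380, plus strand: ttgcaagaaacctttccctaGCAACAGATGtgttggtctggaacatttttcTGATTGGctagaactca
RT1-Db1, beta chain of RT1-D, chr20:4560228-4560294, minus strand: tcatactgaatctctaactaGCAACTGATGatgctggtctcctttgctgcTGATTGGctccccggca
RT1-Ba, alpha chain of RT1-B, chr20:4576962-4577028, plus strand: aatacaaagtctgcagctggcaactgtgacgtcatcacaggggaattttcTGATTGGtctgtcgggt
RT1-Bb, beta chain of RT1-B, chr20:4604165-4604231, minus strand: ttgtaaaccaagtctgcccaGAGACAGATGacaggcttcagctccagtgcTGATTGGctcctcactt
RT1-DMa, alpha chain of DM, chr20:4712385-4712452, minus strand: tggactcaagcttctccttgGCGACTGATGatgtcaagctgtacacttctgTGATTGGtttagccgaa

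In RT1-Da, RT1-Db1, RT1-Bb and RT1-DMa the X-box-like match stood first, with 20 or 21 bases between it and the Y box. RT1-Ba held the Y box without that X-box-like spelling, and the windows of Cd74 and B2m held neither spelling. Other spellings of the 2 boxes were not searched, so these genes may still have them. Both motifs were searched on both strands, they do not overlap each other in these 4 genes, and their letters were chosen with these windows in view. Of all 33469 promoter windows of 300 bases, 2.84% held the X-box-like sequence, 7.06% the Y box and 0.26% both. An X-box-like match followed by a Y box within 50 bases on the gene's own strand stood in 0.0299%, which is 10 windows. Those of RT1-Da, RT1-Db1, RT1-Bb and RT1-DMa are among these 10, so this share is not separate from them. A match describes letters only, and these data hold no measurement of binding.

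Cd74, the invariant chain, was lower in every bHR rat than in any bLR rat. Levels are given as FPM, the fragments of a gene for each 1000000 fragments of the library, which is the antilog of the deposited log2 values. In bHR rats Cd74 stood at 11, 11, 12.7, 13.6, 14.3 and 15.9 FPM. In bLR rats it stood at 18.2, 18.7, 19.2, 25.0, 30.7 and 33.4 FPM. In bIR rats it stood at 13, 14.3, 24.2, 26.5, 28.6 and 36.4 FPM. Thus bHR and bLR did not overlap, while 2 bIR rats lay inside the bHR range and the other 4 inside or above the bLR range. The coefficient of variation of Cd74 was 14.7% in bHR, 37.3% in bIR and 27.3% in bLR rats, and whether the spreads differ was not tested. Means were 13.1 ± 1.93, 23.8 ± 8.89 and 24.2 ± 6.61 FPM (SD, n = 6 each) in the same order.

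The chains of RT1-D also had their lowest means in bHR rats, with more overlap. RT1-Da, the alpha chain, ran from 3.25 to 6.82 FPM (median 4.79) in bHR, from 5.02 to 12.2 (median 7.87) in bIR and from 5.25 to 12.1 (median 7.54) in bLR rats. RT1-Db1, the beta chain, ran from 2.10 to 3.72 FPM (median 2.33) in bHR, from 1.80 to 4.47 (median 3.42) in bIR and from 2.69 to 5.15 (median 3.97) in bLR rats. For RT1-Da 4 bHR rats, and for RT1-Db1 5, lay below all bLR rats, and the ranges overlapped through the rest. Rat HR_38, named as in the labels, was the highest bHR rat for both chains. The reads of RT1-Db1 and its close copy RT1-Db2 may have been split between them, and RT1 sequences differ between rat strains, so the levels of all RT1 genes are uncertain.

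RT1-Ba and RT1-Bb, the alpha and beta chains of RT1-B, showed different patterns, a contrast between genes that was not tested. RT1-Ba ran from 1.89 to 4.04 FPM (median 2.68) in bHR, from 2.74 to 7.08 (median 4.90) in bIR and from 3.54 to 7.98 (median 5.06) in bLR rats. RT1-Bb ran from 0.819 to 1.5 FPM (median 1.06) in bHR, from 0.862 to 2.30 (median 1.23) in bIR and from 0.610 to 2.14 (median 1.06) in bLR rats. For RT1-Ba 5 bHR rats lay below all bLR rats, whereas for RT1-Bb the bHR range lay inside the bLR range. RT1-Bb rested on as few as 23 reads a library, and RT1-Ba on 70 to 471.

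The genes that exchange peptide and the class I chain lay at overlapping levels in the 3 lines. RT1-DMa, the DM alpha chain, averaged 29.8 ± 4.50 FPM in 6 bHR, 26 ± 2.95 FPM in 6 bIR and 28.8 ± 2.75 FPM in 6 bLR rats (SD, n = 6). RT1-DMb, the DM beta chain, averaged 14.4 ± 1.65, 15.0 ± 2.08 and 15.4 ± 1.63 FPM. B2m, the light chain of class I molecules, averaged 713 ± 139, 730 ± 133 and 673 ± 94.0 FPM. All 3 genes overlapped between every pair of lines. Ciita, the coactivator of class II transcription, was the least covered, with 14 to 87 reads a library. Its mean was 0.846 ± 0.180 FPM for bHR, 0.945 ± 0.689 FPM for bIR and 0.674 ± 0.256 FPM for bLR rats, again with overlap between all pairs of lines.

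**Figure D1:**
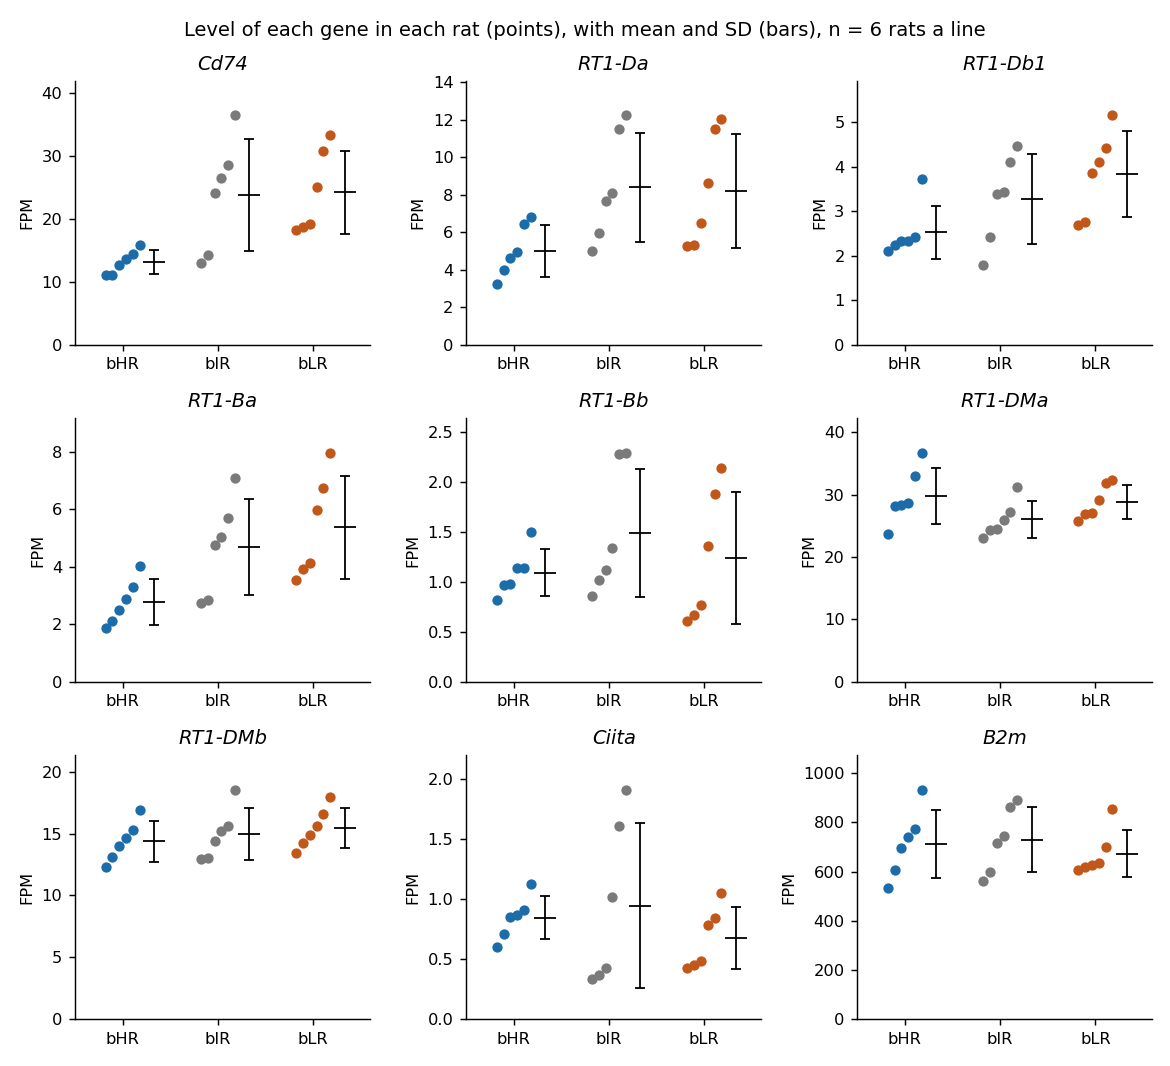
Level of each of the 9 genes in each rat, in FPM on linear axes that start at 0; points are rats, horizontal bars the mean and vertical bars the SD of 6 rats. Cd74 is the gene whose bHR points (11 to 15.9) all lie below the bLR points (18.2 to 33.4), and the panels of RT1-DMa, RT1-DMb and B2m show overlapping lines.

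No class II gene passed the test between bHR and bLR. The limma fit across all genes (Benjamini-Hochberg adjusted p under 0.05) called 0 of the 9 genes, against 93 of 20909 genes, 0.445%, of which 40 were higher and 53 lower in bHR. With libraries scaled by total reads alone, the split of called genes was 47 higher and 41 lower. At an unadjusted p under 0.05, 4 of the 9 genes were lower in bHR and 0 higher, where 5.16% of all genes were lower by that rule and 9.36% differed in either direction. These 4 were Cd74, RT1-Ba, RT1-Da and RT1-Db1. Other lists described below also held such genes, counted in either direction. They were 5 of 13 endothelial markers, 5 of 16 genes of the interferon gamma pathway and 4 of 18 microglia markers. Monocytes and neutrophils had 3 of 9 markers, and T and NK cells 3 of 10. Among the rest were 3 of 26 class I heavy chains, 2 of 12 hippocampal neuron markers and 0 of 16 choroid plexus markers. Cd74 was the only one of the 9 without overlap between the lines, where 0.502% of all genes were lower in bHR without overlap and 0.909% did not overlap in either direction.

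The estimates give the size of these differences. Cd74 had a log2 difference, bHR minus bLR, of -0.86 (SE 0.21, 95% interval -1.30 to -0.42), or 1.81-fold lower in bHR, with a limma adjusted p of 0.0861. RT1-Ba had -0.93 (SE 0.25), 1.91-fold, with an adjusted p of 0.126 in limma. RT1-Da, 1.60-fold, and RT1-Db1, 1.51-fold, had differences of -0.68 (SE 0.25) and -0.59 (SE 0.22), each with a limma adjusted p of 0.342. The beta chain RT1-Bb had a log2 difference of -0.03, and its interval of -0.70 to 0.64 also covers differences as large as that of RT1-Da. Narrower intervals held for RT1-DMa at 0.04 (-0.16 to 0.24), RT1-DMb at -0.10 (-0.31 to 0.10) and B2m at 0.07 (-0.20 to 0.34). Ciita had 0.39, in the opposite direction from Cd74, with an interval of -0.45 to 1.22. Over the 9 genes, 6 were lower and 3 higher in bHR with a median of -0.10, where the median of all genes was -0.00.

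The call on Cd74 depended on the fit. It passed when the mean level of choroid plexus markers entered as a covariate (limma adjusted p 0.0334), with only the 12 bHR and bLR rats in the fit (0.0169) and without bIR rat IR_158 (0.0461). It did not in the other 28 of 31 alternatives, with a log2 difference between -0.96 and -0.76 and an adjusted p between 0.0169 and 0.196 over all 31. Libraries of bHR rats held 31.1 M to 54.6 M reads (M, 1000000) and those of bLR rats 34.8 M to 57.9 M, and with depth as a covariate the difference of Cd74 was -0.96 (limma adjusted p 0.118). RT1-Ba passed once, with the choroid plexus covariate (adjusted p 0.0381 in limma).

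Cd74, RT1-Da and RT1-Ba had the largest differences between bHR and bIR rats among the 9 genes. This comparison shares the bHR rats with the previous one. Markers of other cells were also lower in bHR than in bIR rats: 16 of 16 for choroid plexus (median log2 difference -1.47), 9 of 9 for monocytes and neutrophils (-0.71), 11 of 12 for meningeal fibroblasts (-0.52) and 10 of 11 for border-associated macrophages (-0.24), with 0 called in each list. The choroid plexus markers summed to 4164, 15755 and 17370 FPM in IR_248, IR_213 and IR_261, but to only 398 to 529 FPM in the other bIR rats. The part of any of these cells in the class II differences was not tested. Cd74 had a log2 difference, bHR minus bIR, of -0.78 (SE 0.21), RT1-Da -0.72 (SE 0.25) and RT1-Ba -0.72 (SE 0.25), with limma adjusted p of 0.594 for Cd74 and 0.792 for both chains. Again 0 of the 9 genes passed, against 2 of 20909, 0.00957%. All 3 were lower at an unadjusted p under 0.05, the only ones of the 9 to reach it, where 3.13% of all genes were lower by that rule and 5.81% differed in either direction, and none of the 9 was free of overlap, where 0.268% of all genes were. RT1-Db1 had -0.34, RT1-Bb -0.36, RT1-DMa 0.19, RT1-DMb -0.05, Ciita 0.17 and B2m -0.03. Over 31 alternatives to this fit, the difference of Cd74 ran from -0.94 to -0.60 (limma adjusted p 0.225 to 0.999). That of RT1-Da ran from -0.85 to -0.53 and that of RT1-Ba from -0.86 to -0.47. The alternatives included the choroid plexus covariate, and none of these 3 genes was called in any.

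Between bLR and bIR rats no class II gene passed. Cd74 had a log2 difference, bLR minus bIR, of 0.07 (95% interval -0.37 to 0.51), RT1-Da -0.04 (-0.56 to 0.47) and RT1-Ba 0.21 (-0.31 to 0.73). RT1-Bb departed most from 0, at -0.34 (-1.01 to 0.34), and RT1-Db1 had 0.25 (-0.20 to 0.70). Neither any of the 9 genes nor any other gene passed in limma, a share of 0%, and at an unadjusted p under 0.05 the count was 0 of 9 beside 1524 of all genes, 7.29%. No gene of the 9 was free of overlap, where 0.507% of all genes were. On a scale where the bLR mean log2 level is 0 and the bHR mean is 1, the bIR mean stood at 0.08 for Cd74, -0.06 for RT1-Da, 0.23 for RT1-Ba and 0.43 for RT1-Db1. For these 4 genes the limma test did not tell bIR and bLR rats apart. The intervals are wide, such as -0.31 to 0.73 for RT1-Ba, so equal levels are not shown.

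**Figure D2:**
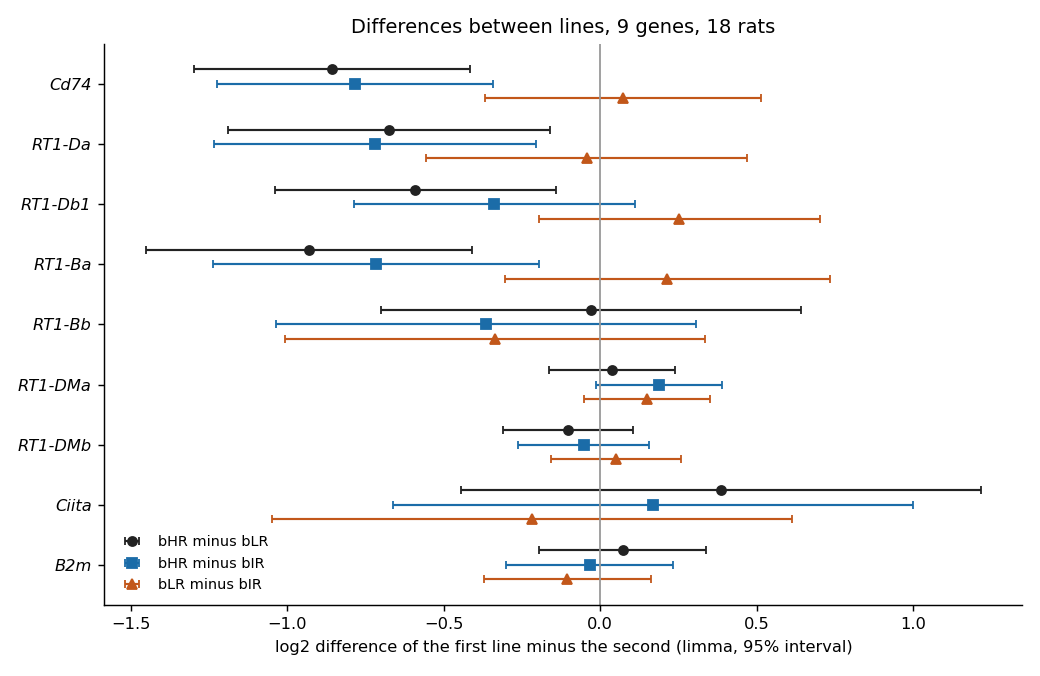
Log2 difference of each gene in the 3 comparisons between lines (points), with the 95% interval from limma (bars). For Cd74, RT1-Da and RT1-Ba both comparisons of bHR lie left of 0 with intervals that leave out 0, and the bLR minus bIR points lie near 0 (0.07, -0.04 and 0.21).

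The share of time a rat spent on the open arms of a raised plus-shaped maze, a measure of anxiety-like behaviour, was compared with each gene across rats, and none of the 9 slopes passed. The maze was run between P65 and P75 in bIR rats and between P160 and P167 in the others, the window in which hippocampi of the latter were taken. The time from maze to tissue therefore also cannot be told apart from line wherever bIR rats are compared. With line in the limma model, 0 of the 9 genes and 0 of all genes, 0%, had a slope that passed, and 907 genes, 4.34%, had an unadjusted p under 0.05. The slope of Cd74 was 0.02 log2 units for each 10 points of percent time (95% interval -0.13 to 0.18, adjusted p 0.999).

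In bLR and bIR rats, those high in the invariant chain were mostly high in the class II chains. Among bLR rats, LR_20, LR_32 and LR_48 had more of Cd74, RT1-Da, RT1-Db1, RT1-Ba and RT1-Bb than LR_8, LR_16 and LR_44. RT1-Ba, for example, was 7.98, 6.74 and 5.98 FPM in the first 3 of these rats and 4.14, 3.54 and 3.91 FPM in the others. Among bIR rats, IR_158 and IR_293 had the lowest Cd74, RT1-Da, RT1-Db1 and RT1-Ba, and IR_149 the highest Cd74, RT1-Ba, RT1-Db1 and Ciita. Among bHR rats, HR_38 was highest for Cd74 and all 4 chains, but HR_2, with the lowest Cd74 (11 FPM), had the next highest RT1-Da (6.42 FPM).

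The relation was measured over the 18 rats after each line's mean log2 level was subtracted, with a permutation p from 100000 shuffles within lines and Benjamini-Hochberg adjustment over 19 relations. RT1-Ba followed Cd74 with r = 0.90 and rho = 0.91 (permutation, adjusted p 5.7e-04 for both), RT1-Db1 with r = 0.86 and rho = 0.85 (adjusted p 5.7e-04 and 6.65e-04), and RT1-Da with r = 0.79 and rho = 0.78 (adjusted p 0.00456 and 0.00627). RT1-Bb followed Cd74 among rats with r = 0.69 and rho = 0.77 (permutation, adjusted p 0.0346 and 0.0157). Ciita had r = 0.60 and rho = 0.57, which did not pass (permutation, adjusted p 0.150 and 0.137). For RT1-DMa r was 0.21 and rho 0.29 (permutation, adjusted p 0.675 and 0.469), for RT1-DMb 0.03 and 0.03 (adjusted p 0.987 and 0.921) and for B2m -0.00 and -0.08 (adjusted p 0.987 and 0.921). IR_158 and IR_293 lay farthest from the median of Cd74 after line means were subtracted, both below it. Without these 2 rats, r was 0.86 for RT1-Ba, 0.83 for RT1-Db1, 0.75 for RT1-Da, 0.72 for RT1-Bb and 0.45 for Ciita. IR_149, highest in Cd74, stayed in.

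By line, with 6 rats each and exact permutation tests adjusted over 24 relations, 3 relations passed by r and 0 by rho. RT1-Ba followed Cd74 in bIR rats (r = 0.998, rho = 1, exact adjusted p 0.0333 and 0.0667) and in bLR rats (r = 0.974, rho = 0.829, exact adjusted p 0.0444 and 0.280). RT1-Bb did so in bLR rats (r = 0.989, rho = 0.943, exact adjusted p 0.0444 and 0.200). In bHR rats, where Cd74 varied least, the highest r was 0.762, for RT1-Db1 (exact adjusted p 0.106), and RT1-Da had r = 0.339 and rho = 0.257 (exact adjusted p 0.842 and 0.790).

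**Figure D3:**
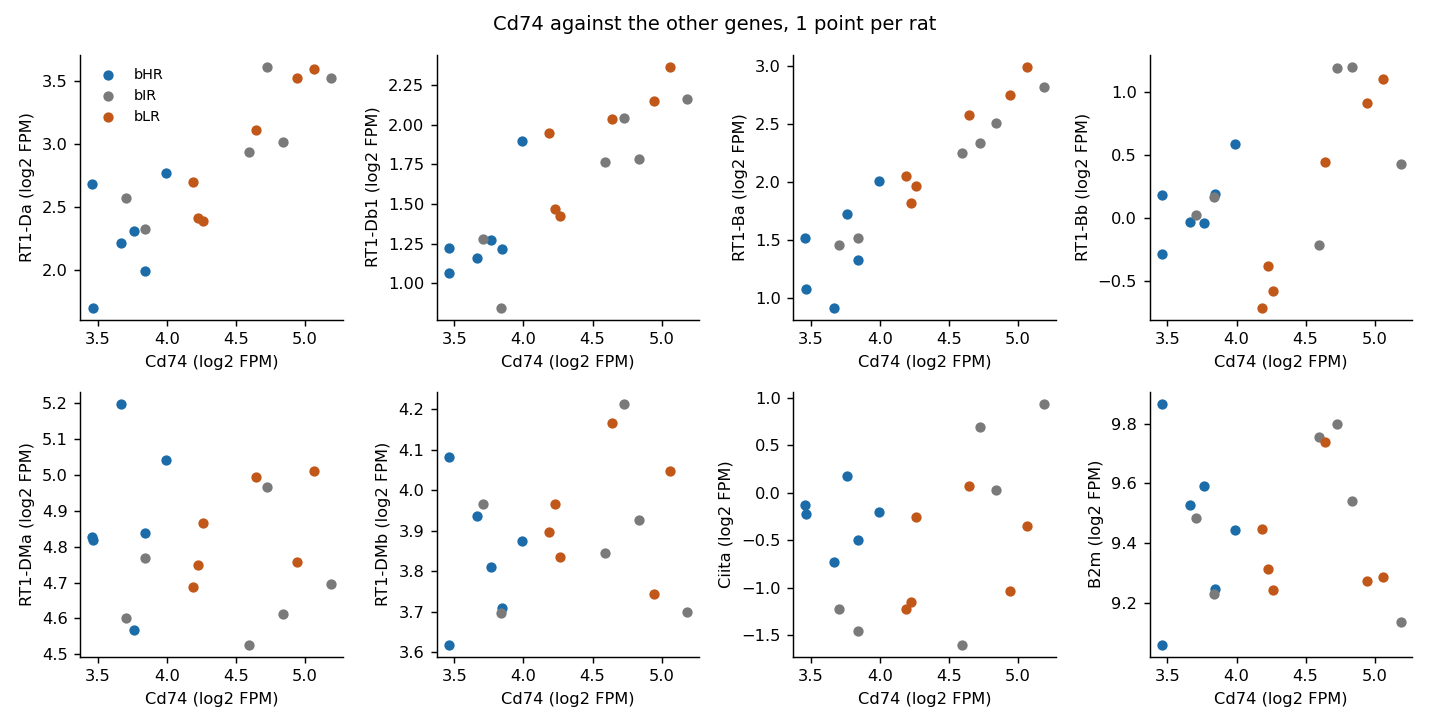
Log2 FPM of Cd74 (horizontal) against each of the other 8 genes (vertical), 1 point per rat, coloured by line. Points rise together for RT1-Ba, RT1-Db1 and RT1-Da (r = 0.90, 0.86 and 0.79 after line means were subtracted) and scatter for RT1-DMb and B2m (0.03 and -0.00).

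Ranked by this r among 15636 genes with a mean log2 level of at least 0, RT1-Ba was first, RT1-Db1 came at rank 2, RT1-Da at 5 and RT1-Bb at 13, while RT1-DMa stood at 2948, RT1-DMb at 6690 and B2m at 7609. Ciita lay below that level and was not ranked. The 10 named genes outside the pathway with the highest r were Magi3 (0.79), Nqo2 (0.74), Lman1 (0.74), Pdxdc1 (0.74), Atp5hl1 (0.71), Adra1b (0.70), Tbx3 (0.70), Ndst4 (0.68), Chchd5 (0.68) and Hmmr (0.68). These are descriptions over 18 rats that share libraries and scaling. None of the 10 passed between bHR and bLR, with limma adjusted p from 0.300 for Nqo2 to 0.970 for Atp5hl1. All but Atp5hl1 (log2 difference -0.03) were higher in bHR, opposite in direction to Cd74, with Nqo2 at 1.03.

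None of the other genes of the pathway passed the test between bHR and bLR. All 7 factors of class II promoters (Rfx5, Rfxank, Rfxap, Nfya, Nfyb, Nfyc and Creb1) were measured, 5 higher and 2 lower in bHR with 0 called and a median log2 difference of 0.04. Of 9 genes that process antigen or the invariant chain, 4 were higher and 5 lower with 0 called. The nearest to the threshold was Sppl2a, the protease that clears the last membrane-bound piece of the invariant chain, at 44.3 ± 4.90 FPM in bHR and 30.8 ± 8.53 FPM in bLR rats (SD, n = 6), with overlap. Its log2 difference was 0.56 (SE 0.13, limma adjusted p 0.0652), opposite in direction to that of Cd74. Of 3 other class II chains, RT1-DOa rested on 0 to 13 reads a library, and 0 were called.

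Among class I and interferon genes, too, none passed. Among 26 class I heavy chains 7 were higher and 19 lower in bHR, with 0 called and a median of -0.15. RT1-S3 had -0.76 (SE 0.18) and RT1-T24-4 had -0.61 (SE 0.17), with limma adjusted p of 0.0709 and 0.151. Of 14 genes for class I loading 0 were called, as were 0 of 5 costimulatory genes. Among 16 genes of the interferon gamma pathway, the main inducer of class II, 7 were higher and 9 lower with 0 called. Ifngr1, the ligand-binding receptor chain, ran from 37.4 to 44.1 FPM in bHR and from 46.0 to 50.0 FPM in bLR rats, without overlap, with a log2 difference of -0.23 (SE 0.06, limma adjusted p 0.0876). Irf1 and Gbp2, targets of the pathway, went the other way at 0.33 and 0.31 (limma adjusted p 0.324 and 0.498), and Gbp2 was named after its value was seen. Differences in this list ran from -1.69 to 0.33. In limma 5 of the 16 genes had an unadjusted p under 0.05 in either direction, where 9.36% of all genes did.

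Cd4, whose protein binds class II molecules on T cells and in rats is also made by macrophages and microglia, was lower in bHR than in bLR rats. It ran from 8.89 to 12.2 FPM in bHR, from 11.5 to 18.5 in bIR and from 14.5 to 26.2 in bLR rats. The bHR and bLR ranges did not overlap, and bIR rats lay between and across them. Its log2 difference, bHR minus bLR, was -0.94 (SE 0.14), 1.91-fold, with a limma adjusted p of 0.00198, and it passed in all 31 alternatives (adjusted p 7.71e-04 to 0.0104). Against bIR rats bHR had -0.58 (adjusted p 0.450), and bLR against bIR 0.36 (adjusted p 0.635). Of the other T cell markers, Cd3e had -0.69 and Cd3g -1.33, with adjusted p of 0.522 and 0.430 in limma, whereas Cd8a had 0.83 and Cd8b 0.51, with adjusted p of 0.781 and 0.934. Of all 10 markers of T and NK cells, 6 were higher and 4 lower in bHR, with a median of 0.12, and Cd4 was the 1 called.

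In whole tissue, fewer cells of a type and less RNA per cell cannot be told apart, so the levels of cell type markers stand here beside those of the class II genes. None of the marker lists had a measured gene at 0 reads in all rats, and the 12 hippocampal neuron markers, with summed levels from 2901 to 4143 FPM, were present in every rat. Between bHR and bLR, 10 of these 12 were lower in bHR (median log2 difference -0.22), as were 7 of 7 red blood cell markers (-0.37) and 9 of 13 endothelial markers (-0.16), with 0 called in each list. The nearest to the threshold was Tek, an endothelial receptor (-0.39, limma adjusted p 0.0640), and the part of these cells in the class II differences was not tested. The 18 microglia markers summed to 535 to 719 FPM in bHR, 617 to 715 in bIR and 635 to 744 in bLR rats. Of these 13 were lower in bHR than in bLR and 1 was called, C1qb, at 36.3 ± 3.46 against 48.6 ± 4.89 FPM (limma adjusted p 0.0382, passing in 19 of 31 alternatives). The mean of this list had r = 0.13 and rho = 0.02 with Cd74 after line means were subtracted (permutation, adjusted p 0.759 and 0.921).

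Other marker lists had a higher r with Cd74 than the microglia list, a contrast that was not tested. For 9 dendritic cell markers r was 0.70 and rho 0.67 (permutation, adjusted p 0.00841 and 0.0162). For 11 markers of border-associated macrophages r was 0.59 and rho 0.66 (permutation, adjusted p 0.0591 and 0.02), and for 12 markers of meningeal fibroblasts 0.60 and 0.68 (adjusted p 0.0591 and 0.0162). Without IR_158 and IR_293, r was 0.65 for the dendritic, 0.49 for the macrophage and 0.43 for the meningeal list. The dendritic list summed to 20.2 to 25.2 FPM in bHR, 20.3 to 25.7 in bIR and 20.4 to 25.4 in bLR rats, and its mean log2 level, on which r was computed, had medians of -0.53, -0.19 and -0.31. Those of the macrophage list were 28.4 to 41.0, 32.9 to 47.7 and 23.5 to 39.3 FPM, and those of the meningeal list 127 to 453, 145 to 878 and 115 to 242 FPM. For 9 markers of monocytes and neutrophils r was 0.32 and rho 0.35, for 4 of B cells 0.10 and 0.13 and for 10 of T and NK cells -0.01 and -0.05 (permutation, adjusted p from 0.389 to 0.987). None of the dendritic, macrophage, meningeal, monocyte or B cell markers was called between bHR and bLR. Higher in bHR were 7 of 11 macrophage markers (median log2 difference 0.06) and 8 of 12 meningeal markers (0.08). So were 4 of 9 dendritic (-0.08), 3 of 9 monocyte and neutrophil (-0.28) and 1 of 4 B cell markers (-0.12). Several markers rested on few reads, such as Itgax with 0 to 37 a library. The part of these cell types in the class II levels was not tested.

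Choroid plexus was present unevenly. Its 16 markers summed to 328 to 5515 FPM in bHR, 398 to 17370 in bIR and 358 to 2591 in bLR rats, and had r = 0.54 and rho = 0.52 with Cd74 (permutation, adjusted p 0.156 and 0.138). Without IR_158 and IR_293 this r was 0.32. Between bHR and bLR, 9 of the 16 markers were higher and 7 lower in bHR (median log2 difference 0.04), with 0 called. In HR_38, IR_213, IR_248 and IR_261, Ttr, a carrier protein made by this epithelium, exceeded 11 on the log2 scale. The rat highest in Cd74, IR_149, was not among them, with Ttr at 192 FPM. HR_38 and LR_20, highest in Cd74 in bHR and bLR, had Ttr at 4172 and 1635 FPM. IR_158 and IR_293, lowest in Cd74 in bIR, had it at 94.6 and 75.7 FPM, but HR_2, lowest in bHR, at 553 FPM. The part of choroid plexus in the Cd74 levels was not tested. Without the 4 libraries with Ttr above 11, the bHR minus bLR log2 difference was -0.92 for Cd74 and -1.05 for RT1-Ba. With them it was -0.86 and -0.93. Among the rats left, Cd74 stood at 13, 14.3 and 36.4 FPM in 3 bIR rats and at 11 to 14.3 FPM in 5 bHR rats. Without the 4 libraries r with Cd74 was 0.90 for RT1-Ba, 0.87 for RT1-Db1, 0.79 for RT1-Da and 0.49 for the choroid plexus markers.

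**Figure D4:**
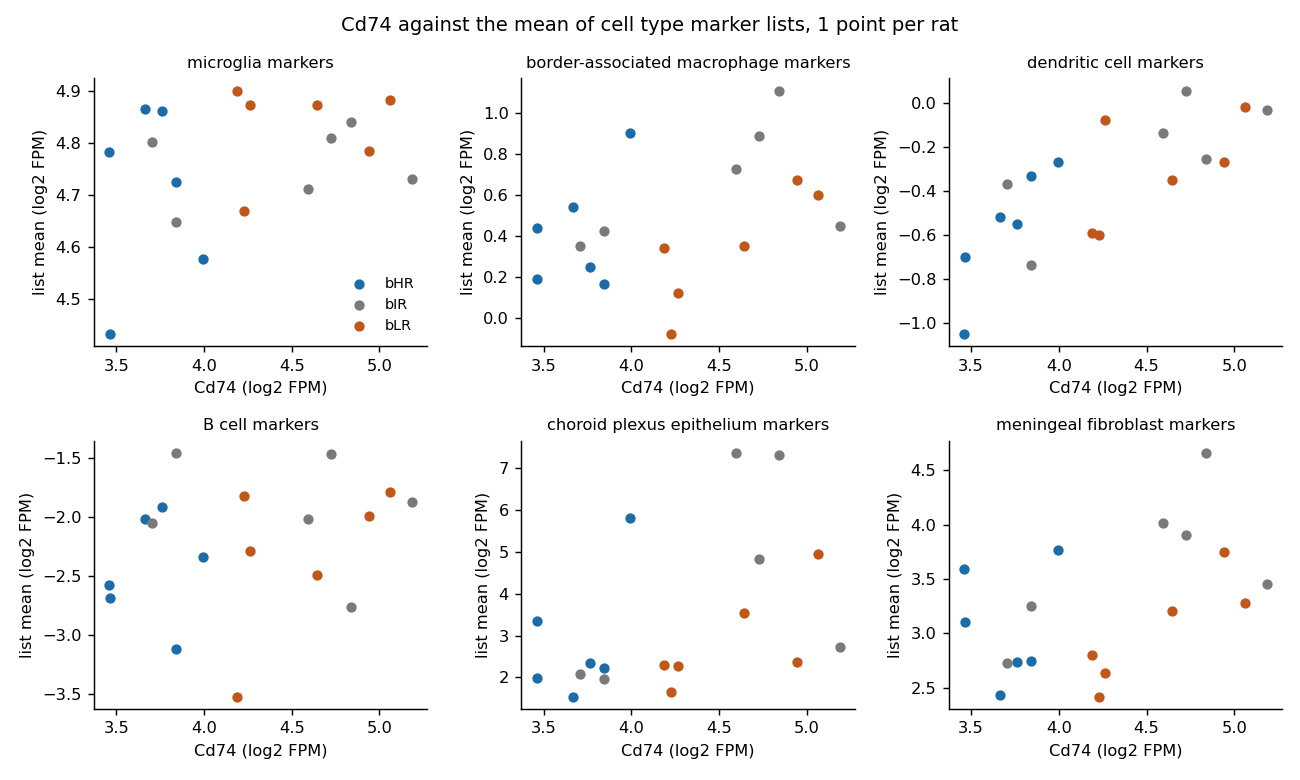
Log2 FPM of Cd74 (horizontal) against the mean log2 FPM of 6 marker lists (vertical), 1 point per rat, coloured by line. The dendritic cell panel rises with Cd74 (r = 0.70 after line means were subtracted), and the microglia panel does not (r = 0.13).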

How the data were processed

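The deposited table held log2 FPM from voom in limma, with an offset of 0.5 reads. Per the design text and the submitters' processing notes, Subread mapped reads to Rnor_6.0, featureCounts counted them on Ensembl 81 genes, and the authors kept named genes with at least 10 counts in 4 samples. Whole reads were recovered from the log2 values: 100% of 376362 values lay within 0.02 of a whole number. On these reads 1258 genes fell short of that filter. Libraries held 31.1 M to 66.6 M reads (M, 1000000), so all members but Ciita and RT1-Bb had at least 65 reads in every library.

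Differences over all 20909 genes were tested on the log2 values (limma 3.58.1, R 4.3.3), with a mean per line over 18 rats, empirical Bayes with a trend, two-sided tests and Benjamini-Hochberg adjustment. A gene was called at an adjusted p under 0.05. The members and lists were chosen with earlier results of these data known. Named were the 9 members, called list genes or up to 3 with the smallest adjusted p per list, and the 10 genes most correlated with Cd74 within lines, apart from LOC and RGD symbols. Cd8a, Cd8b and Gbp2 were added after their values were seen. Alternatives covered filters, scaling, the offset, variance models, covariates and left-out libraries. Promoters came from RefSeq's GRCr8 tables.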

Additional observations from a re-analysis of the deposited data

Results flagged for a closer look

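In 27 sets of 6 rats, the 9 genes in 3 lines, the highest or lowest rat was compared with its neighbour by Dixon's criterion, the gap over the whole range. Chance marks about 1 set in 20, and 2 of the 27 were marked. RT1-Db1 in bHR rat HR_38 stood at 3.72 FPM, where the nearest bHR rat stood at 2.42 and the lowest at 2.10 (gap over range 0.801). HR_38 was also the bHR rat with the most Cd74 and with Ttr above 11 on the log2 scale. B2m in bLR rat LR_48 stood at 854 FPM, where the nearest bLR rat stood at 698 and the lowest at 607 (gap over range 0.630).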

How the results depend on the processing

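Between bHR and bLR, 93 genes were called, 194 with array weights and 41 with sequencing depth as a covariate. Of the 9 genes 0 were called, 2 with the choroid plexus covariate (where 95 of all genes were called) and 1 with only the 12 rats compared (where 84 were). Between bHR and bIR, 2 genes were called and 6 with array weights. Between bLR and bIR, 0 genes were called, 2 when genes with a mean log2 level under 0 were left out, 1 with median centring, 3 with array weights, 1 with voom weights and 1 with the 12 rats compared. The cause of these shifts was not tested. Leaving out 1 rat at a time gave 46 (without LR_8) to 138 (without HR_26) called genes between bHR and bLR, with 52, 53, 59 and 57 without HR_10, HR_34, LR_20 and LR_44, and 0 to 1 of the 9 genes (1 without IR_158). It gave 2 to 4 between bHR and bIR, with 4 without HR_34 or HR_38, and 0 to 2 between bLR and bIR, above 0 without HR_2, HR_26, IR_158, LR_16 or LR_48. Over the same runs r with Cd74 was 0.88 to 0.94 for RT1-Ba, 0.83 to 0.89 for RT1-Db1, 0.74 to 0.86 for RT1-Da and 0.63 to 0.79 for RT1-Bb. No paired analysis was possible because the rat numbers are not shared between lines. A quasi-likelihood count test on the recovered reads was not run. Low read counts limit Ciita and RT1-Bb among the 9 genes, and several list genes such as RT1-DOa.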
